A study of Mus musculus with 2 samples.

Results

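The 6 genes described here are the metallothioneins Mt1, Mt2 and Mt3, the zinc-sensing transcription factor Mtf1, the zinc exporter Slc30a1 and the zinc importer Slc39a14. They were taken by symbol from the 32285 genes of the deposited matrices, and all 6 were present. They were followed in 2 droplet-based single-cell RNA-Seq libraries. Both came from the hindlimbs of female mice of the C57Bl/6J strain, 24 months old. The ATRA+agonist library came from muscle injected 3 times, every other day, with all-trans retinoic acid (ATRA), the retinoid X receptor agonist CD3254 and the retinoic acid receptor gamma agonist BMS961, and the DMSO vehicle library from muscle injected with vehicle on the same schedule. Each library pooled the digested muscle of 2 mice and is 1 sample, so there was no replicate of either group, no difference was tested, and every interval below covers counting error only. A difference between the libraries cannot be told apart from a difference between these pools of mice, dissections or library preparations.

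Metallothioneins are small cysteine-rich proteins that bind zinc, copper and cadmium. Zinc that enters a cell binds MTF1, which then acts through metal response elements in the promoters of Mt1, Mt2 and Slc30a1, and glucocorticoids, interleukin 6 and oxidants are further known inducers of Mt1 and Mt2. SLC30A1 carries zinc out across the plasma membrane, SLC39A14 (ZIP14) carries zinc, iron and manganese in, and in skeletal muscle the metallothioneins are known to rise in wasting.

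In the GENCODE M21 annotation of GRCm38 the metallothionein genes lie in tandem on the plus strand. Mt3 spans chr8:94152607-94154146, Mt2 spans chr8:94172664-94173568 and Mt1 spans chr8:94179082-94180327, with 18517 bases between Mt3 and Mt2 and 5513 bases between Mt2 and Mt1. Mtf1 is at chr4:124802104-124849800, Slc30a1 at chr1:191906767-191913247 and Slc39a14, on the minus strand, at chr14:70303469-70351425. No stretch of 31 bases in the annotated transcripts of Mt1 or Mt3 occurred in a transcript of another gene, and 3 of 573 such stretches of Mt2 did, so few reads could be shared between them and other genes.

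The promoters of Mt1, Mt2 and Slc30a1 are shown because these are the known targets of MTF1 among the members. RefSeq promoter windows (GRCm38.p6, 250 bases before to 50 after the annotated start) were matched for 5 of the 6 members, all but Slc39a14. Capitals mark the core of the metal response element, searched as TGCACNC and TGCGCNC on both strands, 5′ to 3′.
Mt1 promoter, chr8:94178839-94179138, plus strand: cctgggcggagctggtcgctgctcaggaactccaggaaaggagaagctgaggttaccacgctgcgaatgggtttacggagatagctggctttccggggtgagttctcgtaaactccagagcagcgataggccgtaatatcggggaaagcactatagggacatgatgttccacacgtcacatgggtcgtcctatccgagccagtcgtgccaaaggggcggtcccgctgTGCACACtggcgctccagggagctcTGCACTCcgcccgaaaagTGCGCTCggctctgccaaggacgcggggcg
Mt2 promoter, chr8:94172368-94172667, plus strand: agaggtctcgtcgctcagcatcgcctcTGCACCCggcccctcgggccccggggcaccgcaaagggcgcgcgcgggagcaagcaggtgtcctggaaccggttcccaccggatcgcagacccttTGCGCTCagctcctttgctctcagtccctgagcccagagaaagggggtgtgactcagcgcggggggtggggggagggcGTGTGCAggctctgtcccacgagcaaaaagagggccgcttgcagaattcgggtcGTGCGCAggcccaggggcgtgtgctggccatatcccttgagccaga
Slc30a1 promoter, chr1:191906531-191906830, plus strand: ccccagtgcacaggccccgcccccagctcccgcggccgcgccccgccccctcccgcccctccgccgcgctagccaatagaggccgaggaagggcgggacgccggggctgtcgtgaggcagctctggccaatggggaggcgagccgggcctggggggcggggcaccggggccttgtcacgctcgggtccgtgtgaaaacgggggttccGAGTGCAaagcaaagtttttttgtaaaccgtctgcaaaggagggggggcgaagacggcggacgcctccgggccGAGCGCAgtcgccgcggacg

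This core occurred 3 times in the Mt1 window, 4 times in that of Mt2, 2 times in that of Slc30a1, 1 time in that of Mt3 and 0 times in that of Mtf1. Some of these matches began after the annotated start, at bases 3 and 21 in Mt1, 5 in Mt2, 31 in Slc30a1 and 28 in Mt3. Of 32817 promoter windows of the same length, 25.7% held at least 1 match, 7.12% at least 2, 1.97% at least 3 and 0.518% at least 4. A match is a string of letters and not a measured binding site, and these data hold no measure of MTF1 binding.

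The deposited matrices held 10444 barcodes and 65197625 UMIs for ATRA+agonist and 17394 barcodes and 109343486 UMIs for DMSO vehicle. After the filters of the study were rebuilt, 6907 and 6953 cells were kept, with medians of 4699 and 4847 UMIs. The DMSO vehicle library stood apart in red cell content, with 7893 barcodes of under 300 genes that failed the hemoglobin limit against 2282 with ATRA+agonist. The libraries shared 43 barcode sequences, 8 of them among kept cells, and no value of Mt1 or Mt2 changed direction without these. The cells fell into 25 clusters, of which 22 were named by marker genes into 12 classes. Myonuclei-like barcodes (230 against 0) came from the ATRA+agonist library alone, and B cell-like cells numbered 641 against 62. The 7 classes with at least 100 cells in each library were compared, and their own markers were all detected in both. Levels are given as CPM, a gene's UMIs scaled to the total UMIs of the class in that library.

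Mt1 was highest in MuSC-like cells, the class of muscle stem cells whose leading genes include Pax7, Myf5 and Calcr. There it reached 2134 CPM with ATRA+agonist (95% Poisson interval 2085 to 2184, 7107 UMIs in 414 cells) and 3055 CPM with DMSO vehicle (3000 to 3110, 12118 UMIs in 531 cells). FAP-like cells, the fibro-adipogenic progenitors, held 919 and 1569 CPM. In the DMSO vehicle library, tenocyte-like cells at 1028 CPM, glial-like cells at 1017 CPM and monocyte or macrophage-like cells at 1015 CPM had overlapping intervals and could not be ordered. Perineurial-like cells at 853 CPM and smooth muscle or pericyte-like cells at 756 CPM followed, again with overlapping intervals. With ATRA+agonist the order after MuSC-like cells was FAP-like (919 CPM), tenocyte-like (868 CPM), monocyte or macrophage-like (729 CPM), glial-like (615 CPM), perineurial-like (526 CPM) and smooth muscle or pericyte-like (354 CPM), and the intervals overlapped for FAP-like and tenocyte-like cells and for glial-like and perineurial-like cells.

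Endothelial-like cells held far less Mt1, at 45.8 CPM with ATRA+agonist and 51.4 CPM with DMSO vehicle. Lymphocytes held the least: 12.3 CPM in B cell-like cells (51 UMIs in 641 cells) and 11.6 CPM in T or NK cell-like cells (24 UMIs in 309 cells) of the ATRA+agonist library, against 30.5 CPM (11 UMIs in 62 cells) and 4.67 CPM (3 UMIs in 95 cells) with DMSO vehicle. These lymphocyte levels are used here as a rough floor, and Mt1 made by the lymphocytes was not told apart from free RNA. Barcodes of under 300 genes held more Mt1, at 52.1 and 94.0 CPM of the UMIs without hemoglobin. That was also above the level of endothelial-like cells in both libraries. Dendritic-like cells held 193 CPM and myonuclei-like barcodes 99.6 CPM with ATRA+agonist, where alone they were numerous enough for a level.

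Mt2 followed a similar order, with 722 CPM (ATRA+agonist, 2404 UMIs) and 1098 CPM (DMSO vehicle, 4357 UMIs) in MuSC-like cells and 334 and 544 CPM in FAP-like cells. Its main departure was in monocyte or macrophage-like cells, which held 48.0 and 99.3 CPM, below the 132 and 210 CPM of glial-like cells. The share of Mt2 among the UMIs of both genes makes this plain. Mt2 gave 25.3% (exact binomial interval 24.4 to 26.2) and 26.4% (25.8 to 27.1) of these UMIs in MuSC-like cells, and 26.6% and 25.7% in FAP-like cells. In monocyte or macrophage-like cells it gave 6.18% (5.49 to 6.92) with ATRA+agonist and 8.91% (8.09 to 9.79) with DMSO vehicle, and in dendritic-like cells 2.72% (5 UMIs). A low share was not limited to these classes. Smooth muscle or pericyte-like cells had 12.3% (9.16 to 16.0) with ATRA+agonist and 6.48% (5.08 to 8.13) with DMSO vehicle. The shares of MuSC-like and FAP-like cells differed from these lower shares beyond counting error. The 2 neighbouring genes therefore did not keep 1 ratio across cell types.

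**Figure D1:**
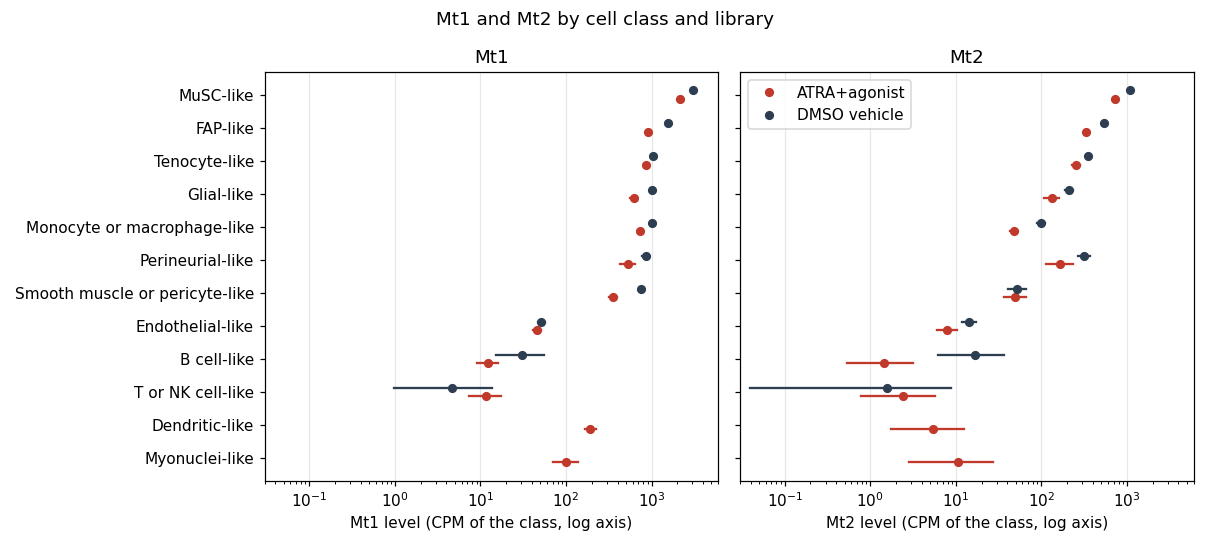
Levels of Mt1 (left) and Mt2 (right) in each cell class, in CPM on a log axis, with points for the ATRA+agonist (red) and DMSO vehicle (dark) libraries and bars for 95% Poisson intervals. MuSC-like cells are at the top of both panels, and both lymphocyte classes are at or below 30.5 CPM of Mt1.

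Both genes were lower in the ATRA+agonist library in most classes. The log2 ratio of ATRA+agonist over DMSO vehicle was below 0 in all 7 compared classes for both Mt1 and Mt2, with a counting interval wholly below 0 in 6 of 7 for each. A difference of 1.5-fold or more, the size used as a call here, was met in 3 classes for Mt1 and in 5 for Mt2. The 5 include endothelial-like cells, where Mt2 was near the floor (7.97 and 14.3 CPM). Across all genes with at least 50 UMIs, the share that was at least 1.5-fold lower was 4.66% in MuSC-like, 6.34% in FAP-like, 9.32% in tenocyte-like, 8.19% in smooth muscle or pericyte-like, 8.68% in glial-like, 4.01% in monocyte or macrophage-like and 4.44% in endothelial-like cells. The 2 genes are neighbours and the classes come from the same 2 libraries, so these are not independent observations.

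In MuSC-like cells the log2 ratio of Mt1 was -0.52 (-0.56 to -0.47), or 1.43-fold lower, which did not reach the 1.5-fold call. Mt2 was 1.52-fold lower (log2 ratio -0.61, -0.68 to -0.53), which fell short of the call with no hemoglobin filter (-0.58) and with classes taken from the marker UMIs of each cell (-0.53). The last setting counted hemoglobin markers, and called 329 of 6907 and 1473 of 6953 cells red blood cells. It left 358 and 327 MuSC-like cells. Of the 9310 genes measured in this class, 5.80% had a ratio below that of Mt1 and 4.23% below that of Mt2, beside a median log2 ratio of 0.04 for all. Markers of other classes were also seen in the MuSC-like cells. Those of FAP summed to 926 CPM with ATRA+agonist and 930 CPM with DMSO vehicle. Markers of smooth muscle or pericytes summed to 922 and 677 CPM, and 3 of them were at least 2-fold enriched over all other cells. Those of myonuclei summed to 235 and 102 CPM, of neutrophils to 1.20 and 123 CPM (3 and 7 of 7 markers detected) and of red blood cells to 288 and 864 CPM. RNA of other cells was not told apart here from RNA made by the MuSC-like cells, and its part in the ratio was not tested.

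FAP-like cells showed a larger difference with far more UMIs behind it: Mt1 was 1.71-fold lower (log2 ratio -0.77, -0.80 to -0.74, 12162 and 20636 UMIs) and Mt2 1.63-fold lower (log2 ratio -0.70, -0.76 to -0.65). Their 3 clusters gave the same direction. Mt1 was 862 and 1527 CPM in the cluster led by Cxcl14, Smoc2 and Mme, 821 and 1543 CPM in that led by Gdf10, Fst and Igfbp3, and 1149 and 1703 CPM in that led by Sema3c, Pi16 and Adgrd1, where Mt2 was also highest, at 519 and 776 CPM.

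In tenocyte-like cells, the matrix-producing cells of tendon, the difference was small: Mt1 was 1.18-fold lower (log2 ratio -0.24, -0.34 to -0.14) and Mt2 1.40-fold lower (-0.49, -0.67 to -0.31). Among the genes measured there, 27.8% had a lower ratio than Mt1. Glial-like cells gave -0.73 (-0.87 to -0.58) for Mt1 and -0.68 (-1.01 to -0.35) for Mt2, with 131 cells in the ATRA+agonist library. Both calls ended with no maximum of genes, where the ratios were -0.18 and -0.19, and also under a doublet rate of 15%, no hemoglobin filter, a limit of 10% mitochondrial UMIs or at least 500 genes.

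Smooth muscle or pericyte-like cells and monocyte or macrophage-like cells separated the 2 genes. In the former, Mt1 was 2.14-fold lower (log2 ratio -1.10, -1.28 to -0.92, 336 and 996 UMIs), while Mt2 was 49.5 and 52.4 CPM, a log2 ratio of -0.08 (-0.65 to 0.47). With a limit of 10% mitochondrial UMIs the log2 ratio of Mt1 was -0.38, no longer past 1.5-fold, and that of Mt2 was 0.67. The cluster whose leading genes include the pericyte genes Abcc9, Kcnj8 and Rgs5 held 193 and 385 CPM of Mt1, and the cluster led by the smooth muscle genes Acta2, Tagln and Myh11 held 1646 CPM in the DMSO vehicle library (81 cells), with 38 cells in the other. In monocyte or macrophage-like cells the order was turned, with Mt1 1.39-fold lower (log2 ratio -0.48, -0.54 to -0.42) and Mt2 2.07-fold lower (log2 ratio -1.05, -1.28 to -0.82, 278 and 397 UMIs). Of the genes measured in that class, 0.945% had a lower ratio than Mt2, and with a doublet rate of 15% the ratios became -0.05 and -0.40.

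**Figure D2:**
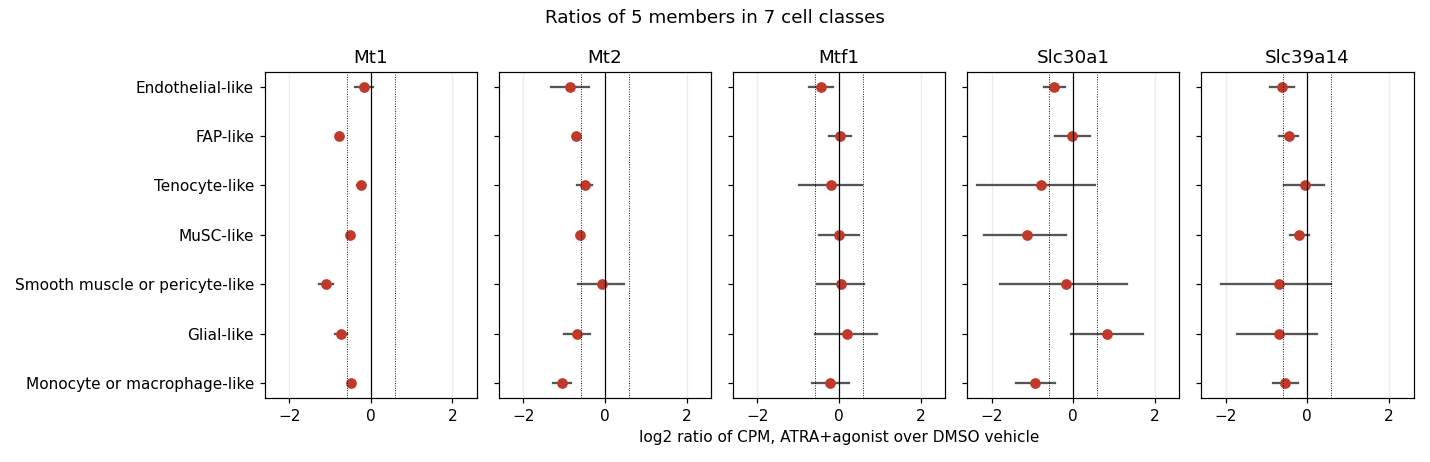
Log2 ratio of CPM, ATRA+agonist over DMSO vehicle, of 5 members in the 7 compared classes, with 95% counting intervals. Dotted lines mark 1.5-fold in each direction. All points of Mt1 and Mt2 lie below 0, and the intervals reach past 0 for Mt1 in endothelial-like cells and for Mt2 in the smooth muscle or pericyte-like class.

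**Figure D3:**
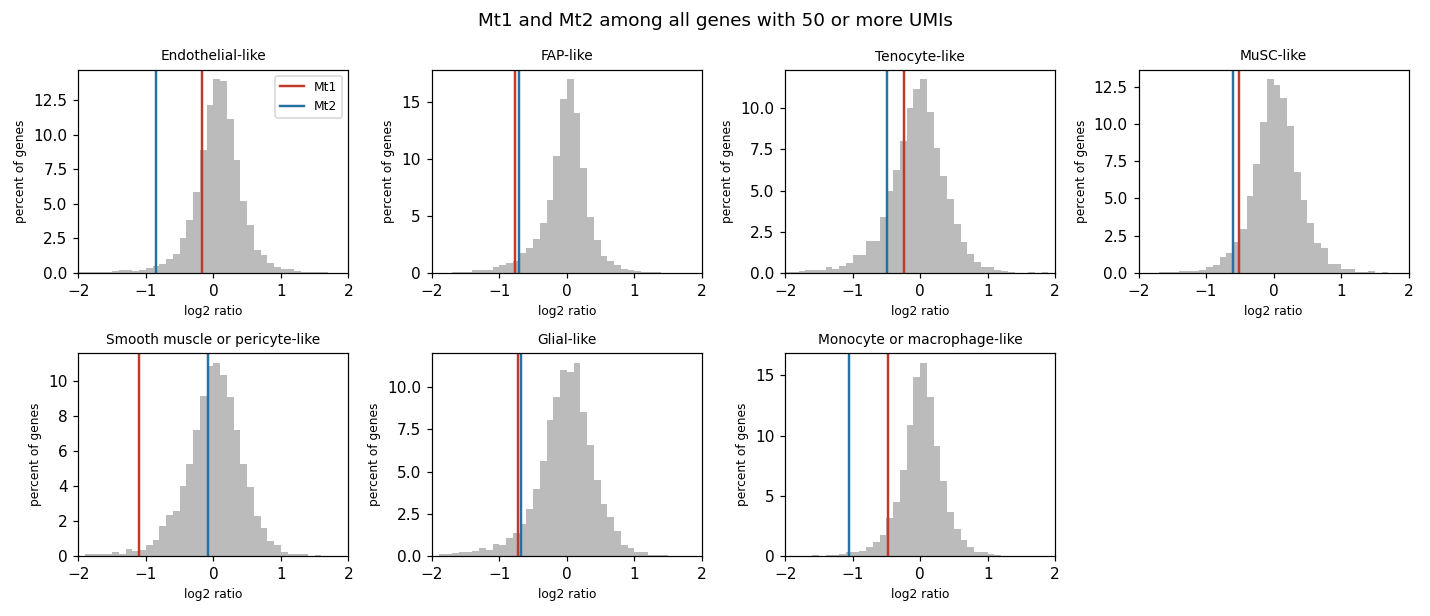
Distribution of the log2 ratio over all genes with at least 50 UMIs in each compared class (gray bars, percent of genes), with the ratios of Mt1 (red) and Mt2 (blue) as lines. Mt1 lies in the lower flank of most distributions, and within the main body in endothelial-like and tenocyte-like cells.

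Endothelial-like cells were the exception for Mt1 (log2 ratio -0.17, -0.38 to 0.04). Mt2 was 1.80-fold lower there (-0.84, -1.32 to -0.38, 59 and 120 UMIs). This call ended with at least 500 genes (-0.52), with no maximum of genes (-0.52) and with thinning (-0.46). Its levels, 7.97 and 14.3 CPM, were near the floor. Lymphocytes held 1.45 to 16.7 CPM of Mt2. Barcodes of under 300 genes held 12.6 and 33.5 CPM without hemoglobin UMIs, a log2 ratio of -1.42 (-2.79 to -0.29). The part of such free RNA in the Mt2 ratio of endothelial-like cells was not tested. The class is a mix that differed between the libraries, with the cluster led by Aqp1, Timp4 and Kdr at 1315 and 565 cells and the cluster led by Cd274, Gbp4 and Ubd at 85 and 1018 cells. With a doublet rate of 15% the ratios of the class became -1.96 for Mt1 and -2.53 for Mt2, and with no maximum of genes that of Mt1 was 0.32. Most of its Mt1 lay in the cluster led by Stmn2, Sema3g and Edn1, of which Sema3g is known from arterial endothelium, at 151 CPM (228 UMIs) and 212 CPM (329 UMIs). Within that cluster the log2 ratio was -0.49 (-0.74 to -0.24) for Mt1 and -1.27 (-1.83 to -0.72) for Mt2. In the Aqp1, Timp4 and Kdr cluster Mt1 was 9.43 and 4.87 CPM, in the range of the lymphocytes, and its ratio is not read. The Cd274, Gbp4 and Ubd cluster held 25.8 CPM (8 UMIs) and 18.4 CPM (72 UMIs).

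Over single cells, the lower level of Mt1 in MuSC-like cells was seen in the body of the distribution. The median cell held 11.3 UMIs of Mt1 per 10000 with ATRA+agonist and 20.4 with DMSO vehicle, the lower quartile 1.59 and 5.54, and the upper quartile 32.5 and 51.0. The highest cell, at 357 per 10000, was in the ATRA+agonist library, against a highest of 243 with DMSO vehicle, so the ranges overlapped. The highest 5% of cells held 24.6% and 19.4% of the Mt1 UMIs. With every cell thinned to 1000 UMIs, Mt1 was seen in 57.3% and 68.2% of MuSC-like cells, and unthinned in 80.0% and 88.1% at medians of 7448 and 6463 UMIs per cell. In T or NK cell-like cells, used as a rough floor, Mt1 was seen in 3.24% and 1.05% of cells unthinned, at medians of 6097 and 5972 UMIs. With ATRA+agonist it was seen in 0.654% of these cells when thinned. Mt2 had medians of 3.90 and 7.74 per 10000 in MuSC-like cells. FAP-like cells had medians of 5.61 and 7.78 for Mt1, and monocyte or macrophage-like cells of 4.63 and 7.57.

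The 2 genes varied together from cell to cell to differing degrees. In thinned cells, Pearson's r of log(UMIs + 1) of Mt1 and Mt2 was 0.48 (410 cells) and 0.53 (531 cells) in MuSC-like cells, 0.28 and 0.39 in FAP-like cells, and 0.09 and 0.11 in monocyte or macrophage-like cells, where Mt2 was seen in 4.46% and 8.79% of thinned cells. These values share library and depth and are a description, and they are limited by the number of UMIs per cell.

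**Figure D4:**
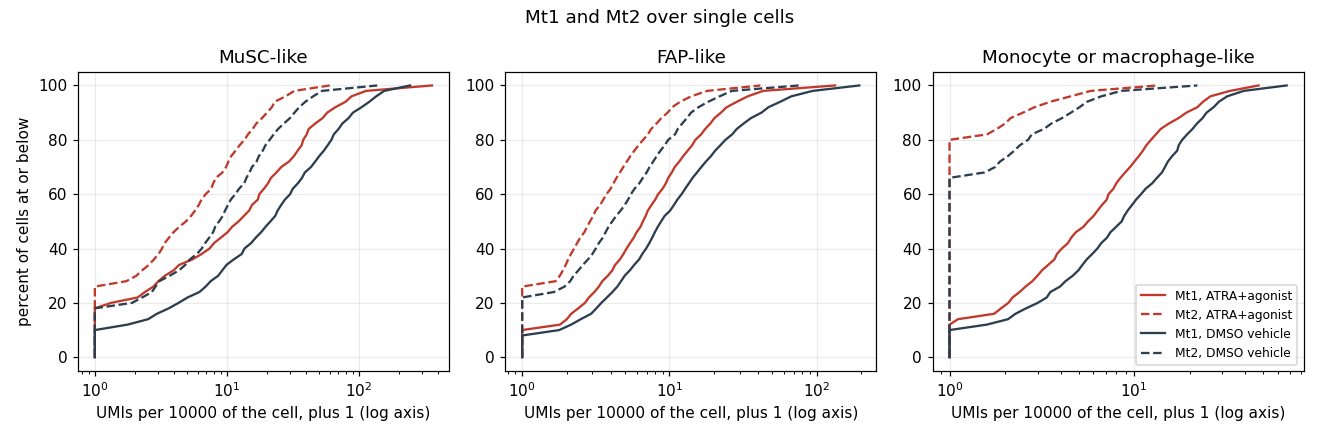
Percent of cells at or below a given content of Mt1 (solid) or Mt2 (dashed), in UMIs per 10000 of the cell plus 1 on a log axis, in the ATRA+agonist (red) and DMSO vehicle (dark) libraries. In MuSC-like cells the red Mt1 curve lies left of the dark one up to the highest 2% of cells, with medians of 11.3 and 20.4.

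Mt3, the metallothionein best known from brain, was rare, with 47 UMIs in all kept cells with ATRA+agonist and 61 with DMSO vehicle. Of the 47, 32 (68.1%) came from the 230 myonuclei-like barcodes, whose leading genes include the fiber genes Acta1, Tnnc2 and Ckm, at 83.9 CPM (57.4 to 118). These 32 UMIs were in 12 barcodes, and 13 of them in 1 barcode. In glial-like cells 4 and 24 UMIs were seen (5.37 and 12.01 CPM, log2 ratio -1.16, -3.15 to 0.38), and this direction was not kept: the ratio was 0.39 with no doublet removal, 0.28 with a doublet rate of 15%, 1.44 with a limit of 10% mitochondrial UMIs and 3.76 with no maximum of genes. The glial-like cluster led by Gm20754, Csmd3 and Il1rapl1 held 0 UMIs in 183 cells of the DMSO vehicle library, which allows up to 2.81 CPM. Tenocyte-like cells held 0 and 13 UMIs, at least 1.79-fold lower with ATRA+agonist when the 0 is set at 3 counts over the class. MuSC-like cells held 1 and 12 UMIs (log2 ratio -3.33, -8.75 to -0.58). In endothelial-like and monocyte or macrophage-like cells there were 0 UMIs in both libraries, which allows up to 0.405 and 0.358 CPM in the former and 0.518 and 0.750 CPM in the latter.

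Mtf1, the zinc sensor, lay between 16.4 and 48.5 CPM in the compared classes with ATRA+agonist and between 17.6 and 47.1 CPM with DMSO vehicle, with its top level in the smooth muscle or pericyte-like class (48.5 and 47.1 CPM), where the interval overlapped that of glial-like cells with ATRA+agonist. In MuSC-like cells it was 20.1 and 20.2 CPM (log2 ratio 0.00, -0.49 to 0.48) and in FAP-like cells 17.8 and 17.6 CPM (0.02, -0.25 to 0.28). Its interval was below 0 only in endothelial-like cells among the compared classes, at 22.3 and 30.3 CPM (-0.44, -0.73 to -0.15), and no class reached 1.5-fold. A difference under about that size could not be seen in the classes with few UMIs.

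Slc30a1, the exporter, had its highest level in endothelial-like cells, though the interval of glial-like cells with ATRA+agonist overlapped theirs. In endothelial-like cells it was at 28.2 CPM (209 UMIs) and 38.9 CPM (326 UMIs), a log2 ratio of -0.46 (-0.72 to -0.21). That high level held within the Aqp1, Timp4 and Kdr cluster, the low-Mt1 one, at 25.7 and 43.3 CPM. MuSC-like cells held 13 UMIs in 414 cells and 34 UMIs in 531 cells (3.90 and 8.57 CPM, log2 ratio -1.13, -2.18 to -0.18), and monocyte or macrophage-like cells 11.6 and 22.0 CPM (-0.93, -1.41 to -0.45). In FAP-like cells it was 7.26 and 7.38 CPM (-0.02, -0.45 to 0.40), and its ratio ran from -0.59 with thinning to 1.06 without the highest 5% of cells. Glial-like cells gave the opposite sign, 26.9 and 15.01 CPM (20 and 30 UMIs), with an interval that includes 0 (0.84, -0.05 to 1.70).

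Slc39a14, the importer, was highest in MuSC-like cells, the class with the most Mt1, at 84.7 CPM (282 UMIs) and 96.8 CPM (384 UMIs), with a log2 ratio of -0.19 (-0.42 to 0.03). Tenocyte-like cells held 40.0 and 42.0 CPM (-0.07, -0.57 to 0.41). It was lower with ATRA+agonist in endothelial-like cells (21.2 and 32.4 CPM, -0.61, -0.91 to -0.32), FAP-like cells (20.9 and 28.6 CPM, -0.45, -0.68 to -0.23) and monocyte or macrophage-like cells (31.2 and 45.5 CPM, -0.54, -0.85 to -0.24). The sign in the last class turned under 5 of its alternatives in processing, to as much as 0.45, each time with an interval that includes 0. B cell-like cells held 2.65 and 5.55 CPM (11 and 2 UMIs).

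The other zinc carriers differed little. The further list of 23 genes held Mt4 and the other Slc30 and Slc39 genes. Of these, 13 to 15 per class had at least 10 UMIs. Their median log2 ratio ran from -0.02 in MuSC-like to 0.13 in tenocyte-like cells, beside medians of 0.04 and -0.04 for all genes. Of all genes with at least 10 UMIs, the shares at least 1.5-fold lower and higher were 8.56% and 10.5% in endothelial-like, 12.5% and 5.71% in FAP-like, 16.7% and 9.98% in tenocyte-like, 9.29% and 12.2% in MuSC-like, 13.5% and 13% in the smooth muscle or pericyte-like class, 16.1% and 11.5% in glial-like and 9.01% and 8.8% in monocyte or macrophage-like cells. These shares set no condition on the interval. On the same rule, 0 to 2 carriers per class were lower and 0 to 2 higher. Those that also had an interval on 1 side of 0 differed by class. Lower with ATRA+agonist were Slc39a9 (12 and 58 UMIs) and Slc39a10 (39.2 and 63.2 CPM) in tenocyte-like cells, Slc30a5 in smooth muscle or pericyte-like cells (28.5 and 45.6 CPM) and Slc39a12 in monocyte or macrophage-like cells (6.39 and 27.5 CPM, 37 and 110 UMIs). Higher were Slc39a13, a carrier of the secretory pathway, in MuSC-like cells (21.9 and 13.1 CPM, log2 ratio 0.74, 0.21 to 1.28) and Slc39a11 in glial-like cells (18 and 24 UMIs, log2 ratio 1.01, 0.04 to 1.95).

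Genes of known metallothionein inducers were read beside these values. The glucocorticoid-induced list of 10 genes had a median log2 ratio below that of all genes in all 7 classes, from -0.14 in MuSC-like to -0.94 in tenocyte-like cells, and 3 to 6 of its members were at least 1.5-fold lower in each class, beside 8.56% to 16.7% of all genes at the same minimum of 10 UMIs. Fkbp5, which binds the receptor's chaperone complex, was 62.5 and 115 CPM in MuSC-like cells (log2 ratio -0.88, -1.12 to -0.64) and 124 and 243 CPM in FAP-like cells (-0.97, -1.05 to -0.88). Tsc22d3, the glucocorticoid-induced leucine zipper, was 22.2 and 43.1 CPM in MuSC-like cells (-0.96, -1.37 to -0.55). Zbtb16 was 77.8 and 173 CPM there (-1.15, -1.36 to -0.94), while Klf9, a gene of the list named here after its values were seen, was 591 and 621 CPM (-0.07, -0.16 to 0.01). Per1, a clock gene of the list, was higher in MuSC-like cells by less than 1.5-fold, at 41.4 and 31.5 CPM (0.40, 0.04 to 0.76).

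For the oxidative stress list of 17 genes, class medians ran from -0.18 in smooth muscle or pericyte-like to -0.04 in MuSC-like cells, and at most 3 genes per class were 1.5-fold lower. The 3 were Hmox1, Nqo1 and Gsr in tenocyte-like cells, of 17 measured, a share close to the 16.7% of all genes there. They break down heme, reduce quinones and reduce oxidized glutathione. In other classes, Hmox1 was also past 1.5-fold lower in FAP-like (32.4 and 64.9 CPM) and monocyte or macrophage-like cells (164 and 344 CPM). So were Sod2 in FAP-like cells (72.1 and 115.5 CPM) and Nqo1 in MuSC-like (11 and 43 UMIs) and endothelial-like cells (74 and 127 UMIs). Gclm was higher in smooth muscle or pericyte-like cells (45 and 39 UMIs). The acute-phase list of 8 genes was mixed, with Lcn2 and Cebpb lower and Saa3 and Hp higher in FAP-like cells. The dissociation list of 10 genes, which marks stress of cell isolation, had Fos, Jun and Junb higher and the heat-shock genes Hspa1a and Hspa1b lower in MuSC-like cells, with a median of 0.36. A link of these lists to Mt1 and Mt2 was not tested.

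**Figure D5:**
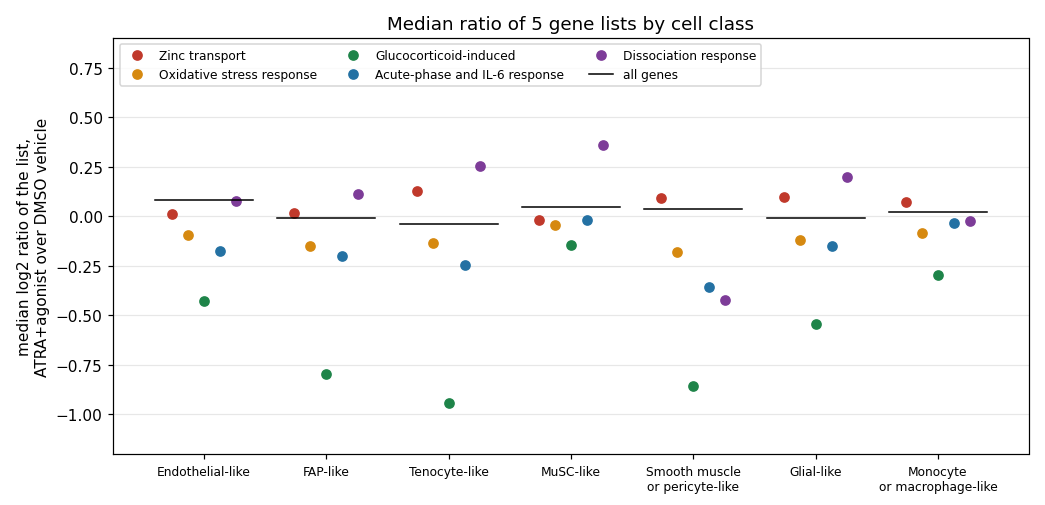
Median log2 ratio of 5 gene lists in each compared class (points), and of all genes with at least 10 UMIs (black lines). The green points, for the glucocorticoid-induced list, are the lowest of the 5 in each class, from -0.14 to -0.94.

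Across 22 class and library levels, genes whose log2(CPM + 10) was among the 5 most like that of Mt1, of 11083 genes, were Cd63 (Pearson's r 0.94), Mt2 (0.91), Rnd3 (0.90) and the glucocorticoid-induced Cebpd (0.89). By Spearman's rho Mt2 came first (0.93), followed by Fgfr1 (0.92). Slc39a14 had r of 0.66, Mtf1 0.07 and Slc30a1 -0.19. The points share libraries, depth and cell classes, so these values are given as a description.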

How the data were processed

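Hindlimb muscle of aged mice was digested, live cells were sorted and 3′ droplet libraries were made, and the authors ran Cell Ranger (version 7.2.0 in the file headers) on mm10 to give the deposited UMI counts per gene and barcode. The annotation release is not given in the sources used here. The labels' extract protocol and tools (FastQC, kallisto 0.46.2, per the submitters' processing notes) describe the bulk libraries of the same study and not these.

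Cells were kept at 300 to 5000 genes, under 20% mitochondrial and under 0.25% Hbb- UMIs, after the study's methods, and the 7.5% with the highest doublet score per library were removed, by a rebuilt neighbour score (20% artificial doublets). They were clustered by Louvain at resolution 0.8 without the members, the gene lists, mitochondrial, ribosomal and hemoglobin genes. A cluster was named where at least 3 markers of a class were 2-fold enriched. Red blood cell markers named no cluster, since hemoglobin RNA is free in both libraries, and this rule was set after the clusters were seen. UMIs were summed per class and library. CPM have exact Poisson intervals and ratios exact conditional intervals, at 95%, both checked on simulated data. Ratios needed 100 cells in each library and 10 UMIs, levels 50 cells. Genes were named as the 6 members, as list genes past 1.5-fold with an interval on 1 side of 0, and as the 5 genes most like Mt1. Of the last, 1 gene is not reported here, nor are the values of 1 glial-like cluster. The members and lists were chosen with earlier results of these data known. Intervals cover counting error only, and UMIs of 1 cell are not independent of its other UMIs. Alternatives are given below. Python 3.11.15, NumPy 2.4.6, SciPy 1.17.1, scikit-learn 1.9.0 and python-igraph 0.11.9 were used.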

Additional observations from a re-analysis of the deposited data

Results flagged for a closer look

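Mt1 was higher with ATRA+agonist in 1 of 11 clusters compared, opposite to the 8 clusters whose interval lay below 0. This unnamed cluster, led by S100a8, Chil3 and Hp (143 and 214 cells), gave 180 CPM (121 UMIs) and 101.1 CPM (192 UMIs), a log2 ratio of 0.83 (0.49 to 1.17). The difference from the other clusters was not tested. The cluster held different cells in the 2 libraries: the mast cell marker Cma1 was 5813 and 489 CPM, Mcpt4 4593 and 287 CPM, the neutrophil marker Retnlg 13.4 and 688 CPM and the macrophage marker C1qa 618 and 135 CPM. Its cells with most markers of mast cells held 364 CPM (14 cells) and 601 CPM (4 cells) of Mt1, and those with most markers of monocytes or macrophages 221 CPM (66 cells) and 96.2 CPM (88 cells). Those with most markers of red blood cells held 64.0 CPM (34 cells) and 102 CPM (110 cells), opposite in direction to the whole cluster. The part of this mix in the ratio was not tested.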

How the results depend on the processing

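With no replicates, the limits are 1 library per group, few UMIs for Mt3 and Slc30a1, and rebuilt class names. No replicate could be left out, and no paired analysis was possible because each group has 1 sample. In MuSC-like cells the log2 ratio of Mt1 left its interval, below 0 throughout, with no hemoglobin filter (-0.46), no maximum of genes (-0.59), cells assigned by their own marker UMIs (-0.43), median-of-ratios scaling (-0.57), cells thinned to 1000 UMIs (-0.59), the mean of each cell's CPM (-0.67) and without the highest 5% of cells (-0.61). That of Mt2 did so with own marker UMIs (-0.53), thinning (-0.85) and the mean of each cell's CPM (-0.79). The setting by own marker UMIs let hemoglobin RNA assign cells, so it drew unlike shares from the libraries (4.76% and 21.2% called red blood cells). With thinning, 2 classes rather than 6 had Mt2 wholly below 0, by construction with fewer UMIs. The count for Mt1 ran from 5 to 7. No Mt1 or Mt2 ratio with an interval on 1 side of 0 changed sign. Those whose interval includes 0 did: Mt1 in endothelial-like cells was below 0 under 11 of 15 alternatives and Mt2 in the smooth muscle or pericyte-like class under 9 of 16. Slc39a14 in monocyte or macrophage-like cells turned to 0.14 (resolution of 1.6), 0.45 (doublet rate of 15%), 0.29 (no hemoglobin filter), 0.063 (at least 500 genes) and 0.29 (own marker UMIs), and the cause was not tested. Values that moved by over 1.5-fold as ratios included Mt1 in endothelial-like cells, from -1.96 (doublet rate of 15%) to 0.32 (no maximum of genes), Mt2 there, to -2.53 (doublet rate of 15%), in the smooth muscle or pericyte-like class Mt1, to -0.38, and Mt2, to 0.67 (both under 10% mitochondrial UMIs), and Mt2 in monocyte or macrophage-like cells, to -0.40 (doublet rate of 15%). Both glial-like ratios fell short of 1.5-fold with no maximum of genes (-0.18 and -0.19), while in FAP-like cells Mt1 and Mt2 stayed past it under all 16 alternatives. Sparse members moved as far: without the highest 5% of cells, endothelial-like Mtf1 was -2.20, Slc30a1 -1.44 and Slc39a14 -2.55, tenocyte-like Slc39a14 0.52 and FAP-like Slc30a1 1.06. With thinning, Mtf1 was -2.04 in tenocyte-like, 0.68 in the pericyte class and -0.86 in macrophage-like cells, and Slc30a1 was 2.17 in glial-like and -1.79 in macrophage-like cells. Removing the barcodes present in both libraries and giving both the same mix of clusters, chosen after seeing the data, changed no Mt1 or Mt2 sign. The mix was set over 5 clusters in endothelial-like and 3 in FAP-like cells. In the glial-like class and the smooth muscle or pericyte-like class it used 1 cluster each, so no mix was balanced there. The MuSC-like, tenocyte-like and monocyte or macrophage-like classes were each 1 cluster and had no mix to set.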

Other observations

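Barcodes that the filters removed held the same direction. In those removed by the hemoglobin limit alone (357 and 1725 barcodes), Mt1 was 564 and 774 CPM without hemoglobin UMIs (log2 ratio -0.46, -0.58 to -0.33) and Mt2 170 and 263 CPM (-0.63, -0.87 to -0.41). In barcodes of under 300 genes, mostly hemoglobin, Mt1 was 52.1 and 94.0 CPM (29 and 171 UMIs, -0.85, -1.47 to -0.28). These barcodes share the libraries and the mice of the kept cells and are no independent replicate.

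A further unnamed cluster, led by B230217J21Rik, Sdk1 and Nova1 (66 and 105 cells, below the number set for a ratio), held 365 CPM (80 UMIs) and 156 CPM (44 UMIs) of Mt1, with intervals of 290 to 455 and 113 to 209. It was chosen after its values were seen. The B cell cluster whose leading genes include Cacna1e, Il5ra and Mzb1, seen with ATRA+agonist alone (83 cells), held 0 UMIs of Mt1, Mt2 and Mt3, which allows up to 3.23 CPM of each.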
